A study of Canis lupus familiaris with 8 samples.

Results

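The transcription factors described here set up and maintain the identity of endothelial cells, the lining of blood vessels. They were chosen by gene symbol from a list of 10 genes, ETV2, ERG, FLI1, ETS1, ETS2, TAL1, LMO2, GATA2, SOX17 and SOX18, of which 9 were found among the 30424 genes of the deposited table. LMO2 was not analysed here. RNA sequencing of cultured dog cells gave 8 libraries. Levels are in TPM, a unit of relative abundance that corrects for transcript length and brings each library to the same sum, so levels of different genes can be compared. JuB2 is an established line from a hemangiosarcoma, a malignant canine tumour thought to resemble vessel-lining cells. Of the JuB2 libraries, 1 came from untreated cells, 3 from cells expressing a scramble short hairpin RNA (shRNA) as control, and 3 from cells labelled as a KDM2B knockdown by shRNA. All 7 therefore share the JuB2 background, and the titles name just scr1 among scramble and shA among KDM2B hairpins. The remaining library, labelled EC with the source name CnAOEC, is described as untreated normal endothelial cells. No age, passage number or time after hairpin expression was used. Separate cultures are not mentioned for the replicates, and the p-values therefore cover the spread among these samples alone, and that spread may be technical.

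ETS factors share a DNA-binding domain that reads a short GGAA core and are found in all cell types, but a few of them carry the endothelial programme. In mouse and zebrafish embryos ETV2 acts briefly at the top of that programme and switches on TAL1, FLI1, GATA2 and other factors, after which ERG and FLI1 keep endothelial genes such as CDH5 active in the mature vessel. TAL1 is a basic helix-loop-helix factor that works with GATA2, a zinc finger factor, through the adaptor LMO2 in both blood and endothelial precursors. SOX17 and SOX18 are related HMG-box factors, the former known from arteries and the latter from developing blood and lymphatic vessels.

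KDM2B, the targeted gene, stood higher, not lower, where the label gives a KDM2B shRNA. It held 20.88, 19.69 and 18.25 TPM there and 14.01, 15.01 and 12.89 TPM in scramble. Untreated JuB2 held 17.65 TPM, above every scramble library and just below the lowest labelled one. The labelled libraries stood 0.46 ± 0.11 above scramble in log2(TPM + 1) units (SE, limma adjusted p = 0.0101). The direction goes against the label, so the differences given here compare libraries by their label, with no measured loss of KDM2B transcript behind them. Most defining endothelial markers also went against the EC label. Of 11 endothelial markers with a value, PECAM1, TIE1, VWF, ESAM and NOS3 were listed at 0 in the library labelled EC, CDH5 stood at 0.64 TPM, and the 11 together summed to 7.95 TPM. ENG and FLT1, endothelial genes outside these 11, held 37.04 and 13.16 TPM there and 22.03 and 12.81 TPM in untreated JuB2. Markers of smooth muscle and fibroblasts summed to 33564 TPM in the same library, with ACTA2 at 5318.54, TAGLN at 6546.17, COL1A1 at 5333.92 and DCN at 3527.19 TPM. Not all of this list was high there: MYH11, of smooth muscle, held 12.1 TPM against 4.98 TPM in untreated JuB2, and DES was listed at 0. The part of such cells in the values of the library labelled EC was not tested, and in bulk RNA fewer cells of a type cannot be told apart from less RNA per cell. In untreated JuB2 7 of the 11 were listed at 0, EGFL7 at 11.37 and KDR at 4.77 TPM were the only ones above 1 TPM, and the sum was 16.5 TPM. Among blood cell markers CD34, SPI1, IKZF1, CD48 and CD53 were at 0 in all 8 libraries, while untreated JuB2 held 43.24 TPM of LCP1 and 11.31 TPM of CORO1A. Of the epithelial markers KRT18 held 122.53 TPM in the library labelled EC and 0 in untreated JuB2, and ESRP1 3.27 and 72.94 TPM. The others with a value were low in both: CLDN4 held 0.99 and 1.96 TPM, and CDH1 and GRHL2 were listed at 0.

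**Figure D1:**
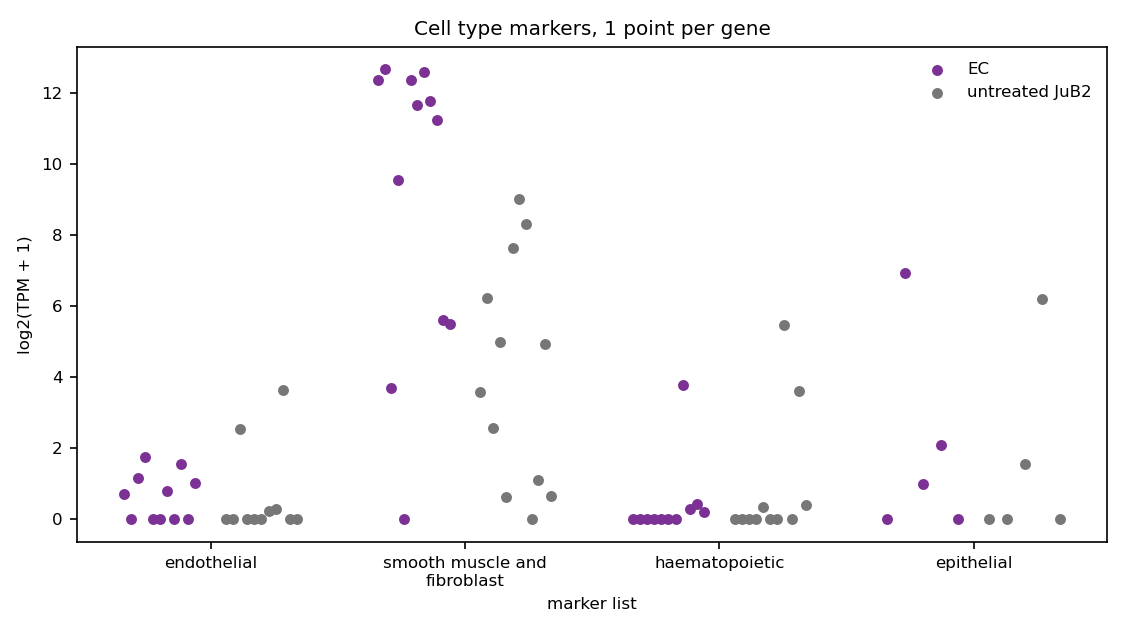
Expression of 4 lists of cell type markers, as log2(TPM + 1), in the library labelled EC (purple) and in untreated JuB2 (grey), with 1 point per gene. Endothelial markers stay low in both libraries, with sums of 7.95 and 16.5 TPM, while smooth muscle and fibroblast markers sum to 33564 TPM in the library labelled EC and 1195 TPM in JuB2.

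The members fell into 3 levels. ETV2 stood far above the others in all 8 libraries, ETS1, ETS2, TAL1 and GATA2 were expressed at low to middling levels, and ERG, FLI1, SOX17 and SOX18 stood between 0 and 1.28 TPM in untreated JuB2. In scramble the order was ETV2, ETS1, ETS2, TAL1, GATA2 and SOX18, and the ranges of neighbours in this order did not overlap. In the libraries labelled KDM2B shRNA GATA2 had passed TAL1, and the ranges of TAL1 (7 to 8.85 TPM) and SOX18 (5.11 to 8.01 TPM) overlapped.

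**Figure D2:**
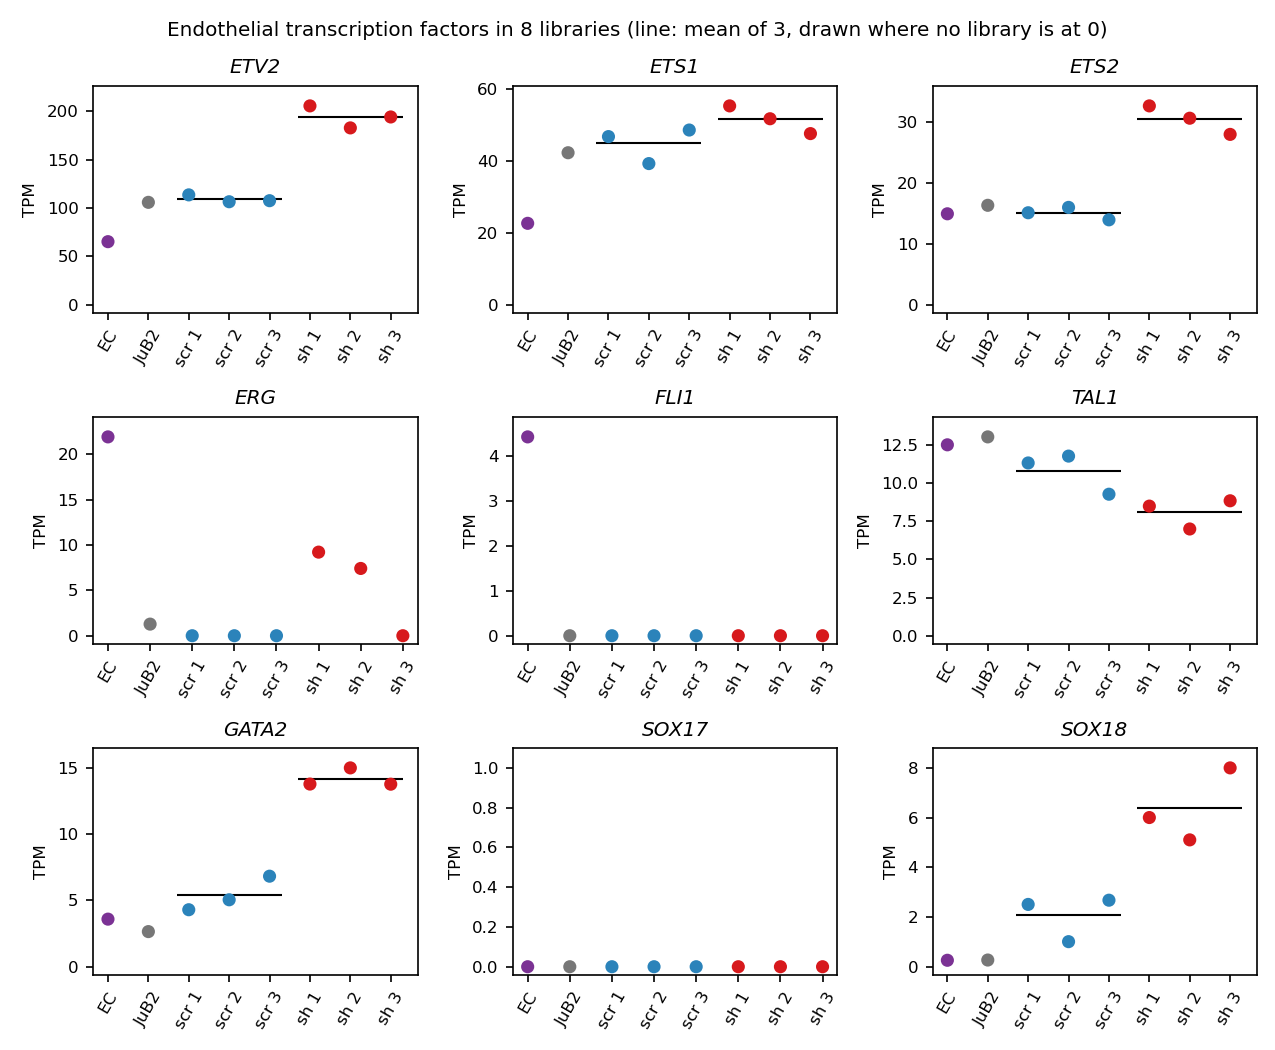
Level in TPM of the 9 factors in each library, on linear axes with their own scale: the library labelled EC (purple), untreated JuB2 (grey), scramble 1 to 3 (blue) and KDM2B shRNA label 1 to 3 (red). Black lines mark group means for genes with no library at 0 among these 6. ETV2, ETS2, GATA2 and SOX18 lie higher in all 3 red points than in any blue one, ERG and FLI1 are highest in the library labelled EC, and SOX17 is at 0 throughout.

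ETV2 (ENSCAFG00000006916), the factor that starts the endothelial programme in embryos, was the most abundant member. It held 113.6, 106.5 and 107.59 TPM in scramble, 205.62, 182.86 and 194.16 TPM with the KDM2B shRNA label, 105.88 TPM in untreated JuB2 and 65.21 TPM in the library labelled EC. All 3 libraries labelled KDM2B shRNA stood above every other library, and untreated JuB2 lay just below the scramble range. Group means were 109 ± 3.82 TPM and 194 ± 11.4 TPM (SD, n = 3 in each group), a rise of 0.82 ± 0.06 in log2(TPM + 1) (SE, limma adjusted p = 8.19e-05). In scramble ETV2 ranked between 1404 and 1490 among all listed genes by TPM, and with the KDM2B shRNA label between 803 and 909. The nearest protein-coding gene on one side of ETV2 in the reference gene table, LOC612644, was also abundant, at 504.62 to 566.36 TPM in scramble and 688.34 to 794.26 TPM with the KDM2B shRNA label. Whether strand was used in counting is not given, and the part of this neighbour in the value of ETV2 was not tested. The ratio of ETV2 to LOC612644, examined after their values were seen, was 0.205 ± 0.0183 in scramble and 0.26 ± 0.0136 with the label (SD, n = 3 each, no overlap; two-sided exact permutation test on log2 ratios p = 0.10, the smallest that 3 against 3 allows).

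ERG (ENSCAFG00000009912) and FLI1 (ENSCAFG00000032412), the ETS factors that maintain mature endothelium, were listed at 0 in all 3 scramble libraries. ERG held 9.22 and 7.42 TPM in libraries 1 and 2 labelled KDM2B shRNA and was listed at 0 in library 3, with 1.28 TPM in untreated JuB2 and 21.93 TPM in the library labelled EC. The libraries labelled KDM2B shRNA thus disagreed with each other, and the third was level with scramble. ERG did not reach the filter of 1 TPM in at least 3 of the 6 libraries and was not tested with the other genes. With no filter on low values its difference was 2.14 ± 0.84 in log2(TPM + 1) (SE, limma adjusted p = 0.0918, 15584 genes tested). FLI1 was above 0 only in the library labelled EC, at 4.43 TPM, and is listed at 0 in the other 7 libraries. A value of exactly 0 in this table can be a failed estimate, so these zeros do not show that the transcripts were absent.

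ETS1 (ENSCAFG00000010304), an ETS factor of angiogenesis, was the second most abundant member. Scramble held 46.66, 39.17 and 48.48 TPM, the libraries labelled KDM2B shRNA 55.18, 51.61 and 47.49 TPM, untreated JuB2 42.18 TPM and the library labelled EC 22.59 TPM. Values of the hairpin groups overlapped, with means of 44.8 ± 4.93 and 51.4 ± 3.85 TPM (SD, n = 3 each) and a difference of 0.20 ± 0.10 that did not pass (SE, limma adjusted p = 0.151). ETS2 (ENSCAFG00000009978), a relative known as a target of RAS and ERK signalling, was about level in the controls. It held 15.07, 15.95 and 13.91 TPM in scramble, 16.29 TPM in untreated JuB2 and 14.9 TPM in the library labelled EC, against 32.58, 30.56 and 27.91 TPM with the KDM2B shRNA label. The groups were well apart, and ETS2 rose from 15.0 ± 1.02 to 30.3 ± 2.34 TPM (SD, n = 3 each), a ratio of means of 2.03 and a difference of 0.97 ± 0.11 (SE, limma adjusted p = 0.000281).

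In the reference gene table ETS1 is the protein-coding neighbour of FLI1, and ETS2 that of ERG, so these 4 members form 2 pairs. In scramble FLI1 was listed at 0 beside 39.17 to 48.48 TPM of ETS1, and ERG at 0 beside 13.91 to 15.95 TPM of ETS2. The ratio of ETS2 to ETS1 within a library is not moved by a common scaling factor. It was 0.323, 0.407 and 0.287 in scramble and 0.59, 0.592 and 0.588 with the KDM2B shRNA label, with 0.386 for untreated JuB2 and 0.66 for the EC label. The groups did not overlap (two-sided exact permutation test on log2 ratios p = 0.10, the smallest that 3 against 3 allows). This ratio was also examined after the values were seen.

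TAL1 (ENSCAFG00000004032), which drives blood and endothelial precursors, was the only tested member with a lower mean in the libraries labelled KDM2B shRNA. It held 11.33, 11.78 and 9.28 TPM in scramble and 8.5, 7 and 8.85 TPM with the label, and the untreated JuB2 library at 13.04 TPM and the library labelled EC at 12.52 TPM were higher than both groups. The groups did not overlap, but the gap between the lowest scramble and the highest labelled library was narrow. The difference of -0.37 ± 0.15 missed the threshold (SE, limma adjusted p = 0.0728), whereas with trimmed-mean scaling it was -0.51 (limma adjusted p = 0.0234), with quantile normalization -0.54 (limma adjusted p = 0.02) and without the mitochondrially encoded genes -0.47 (limma adjusted p = 0.0328). Adding untreated JuB2 to the controls also brought it past the threshold, at -0.44 (limma adjusted p = 0.0389).

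GATA2 (ENSCAFG00000004143), the zinc finger partner of TAL1, rose. It held 4.3, 5.05 and 6.83 TPM in scramble, 13.78, 15 and 13.77 TPM with the KDM2B shRNA label, 2.65 TPM in untreated JuB2 and 3.59 TPM in the library labelled EC. Every labelled library was above every other library, and the untreated and EC libraries lay below the scramble range. The mean went from 5.39 ± 1.3 to 14.2 ± 0.707 TPM (SD, n = 3 each), by 1.27 ± 0.17 (SE, limma adjusted p = 0.000712). The ratio of GATA2 to TAL1, examined after the values were seen, was 0.38, 0.429 and 0.736 in scramble and 1.62, 2.14 and 1.56 with the label. TAL1 was thus the more abundant of the pair in scramble and GATA2 in the labelled libraries (two-sided exact permutation test on log2 ratios p = 0.10, the smallest that 3 against 3 allows).

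SOX18 (ENSCAFG00000029278) was the only SOX factor of the group above 0. It held 2.51, 1.01 and 2.68 TPM in scramble, 6.01, 5.11 and 8.01 TPM with the KDM2B shRNA label, 0.27 TPM in untreated JuB2 and 0.26 TPM in the library labelled EC. Scramble therefore stood above untreated JuB2, and the labelled libraries above both. SOX18 rose from 2.07 ± 0.919 to 6.38 ± 1.48 TPM (SD, n = 3 each), a difference of 1.30 ± 0.28 (SE, limma adjusted p = 0.00687), with the widest error of the tested members. SOX17 (ENSCAFG00000025327) was listed at 0 in all 8 libraries.

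Across the shRNA comparison 6 members were tested, of which 4 were higher (ETV2, ETS2, GATA2 and SOX18), 0 lower and 2 not passing (ETS1 and TAL1, limma), with 1 lower under the scalings and control named for TAL1. Of all 11485 genes tested 50.9% passed, 33.3% higher and 17.6% lower, so a called member is not unusual in this comparison. The groups did not overlap for 5 of the 6, against 59.3% of all genes tested. The median difference was 0.90 over the 6 and 0.16 over all genes. Each of the 6 held at least 1 TPM in all 6 hairpin libraries, while ERG, FLI1 and SOX17 did not pass the filter. Some marker lists moved in the same comparison. Smooth muscle and fibroblast markers summed to 1656 to 1717 TPM in scramble and 867 to 940 TPM with the label (1 higher and 5 lower of 9 tested). Untreated JuB2, at 1195 TPM, lay between these groups. The 1 higher, COL3A1, did not pass under the 3 other scalings. Endothelial markers summed to 9.7 to 14.9 and 23.9 to 24.9 TPM (KDR and EGFL7 higher, the 2 tested). Blood cell markers summed to 47.9 to 48.9 and 48 to 55 TPM (CORO1A higher and LCP1 not passing as deposited, the 2 tested). These calls depended on scaling. LCP1 was called lower under the 3 other scalings, and CORO1A did not pass with trimmed-mean scaling or quantile normalization. Epithelial markers summed to 56.7 to 66.8 TPM in scramble and 25.7 to 31.5 TPM with the label. Most of this sum was 1 gene, ESRP1, a splicing factor of epithelia, at 55.7 to 64.92 and 21.36 to 31.19 TPM. ESRP1 was lower (limma adjusted p = 0.000356) and CLDN4 did not pass, the 2 tested. Their part in the members' differences was not tested.

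**Figure D3:**
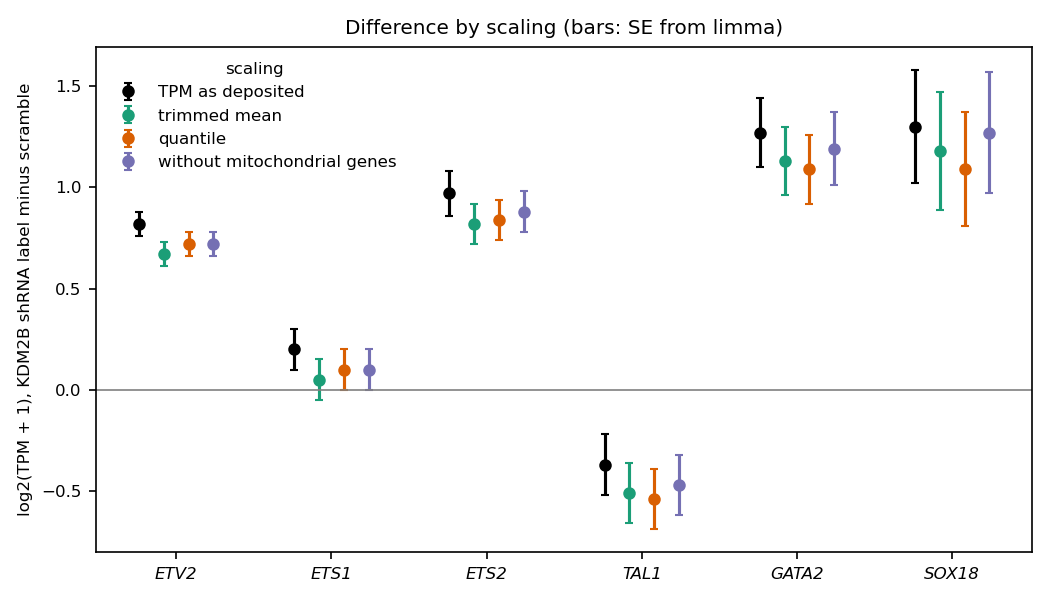
Difference between the libraries labelled KDM2B shRNA and scramble on the log2(TPM + 1) scale for the 6 tested members, with bars of 1 SE from limma (3 libraries in each group), as deposited and under 3 other scalings. ETV2, ETS2, GATA2 and SOX18 stay above 0 under each, from 0.67 for ETV2 with trimmed-mean scaling to 1.30 for SOX18 as deposited, and TAL1 stays below 0.

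Untreated JuB2 was also set beside the range of the 3 scramble libraries. It lay outside that range for 5 of the 6 tested members, against 64.2% of all genes tested, so such a position is common. It lay below the range for ETV2, GATA2 and SOX18 and above it for ETS2 and TAL1. The gap was narrow for ETV2, at 105.88 TPM against a lowest scramble value of 106.5 TPM. It was also narrow for ETS2, at 16.29 TPM against a highest scramble value of 15.95 TPM. For ETV2, GATA2, SOX18 and TAL1 scramble lay between untreated JuB2 and the libraries labelled KDM2B shRNA. With 1 untreated library this has no test.

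Between the library labelled EC and untreated JuB2, genes were compared where the higher library held at least 5 TPM. Of 5 members compared ERG alone differed 4-fold or more, taken on log2(TPM + 1), against 15.7% of 10198 genes (7.56% higher and 8.13% lower in the library labelled EC). ERG was 3.33 higher on that scale, and 4.52 higher against each scramble library. ETV2 and ETS1 were lower in the library labelled EC, with differences of -0.69 and -0.87, and ETS2 and TAL1 differed by -0.12 and -0.05. With trimmed-mean scaling ETV2 and ETS1 differed by only -0.27 and -0.46. No direction can be given for ETS2 and TAL1, which ranged from -0.13 to 0.28 and from -0.06 to 0.40 over the other scalings, pseudocounts and control libraries. FLI1, GATA2, SOX17 and SOX18 stayed under the minimum of 5 TPM in both libraries. There are no replicates for this comparison, so no error or test can be given.

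The wider ETS family was summarised over the 24 family genes with a value, the 5 ETS members included. Its summed level was 508, 483 and 490 TPM in scramble, 752, 732 and 705 TPM with the KDM2B shRNA label, 472 TPM in untreated JuB2 and 404 TPM in the library labelled EC. ETV2 was the most abundant of the family in every library and ELK3, a family member known from angiogenesis, the second. ETV2 made up 22.1 ± 0.202% of the family in scramble and 26.6 ± 1.43% with the KDM2B shRNA label (SD, n = 3 each), and it made up 22.4% for untreated JuB2 and 16.1% for the EC label. ETS1 made up 9.06 ± 0.904% and 7.04 ± 0.302%, and ETS2 3.03 ± 0.238% and 4.16 ± 0.188% (SD, n = 3 each). ERG made up 5.42% of the family in the library labelled EC and 0.271% in untreated JuB2. Without ETV2 the family still summed to 385 ± 9.19 TPM in scramble and 535 ± 21.4 TPM with the label (SD, n = 3 each).

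**Figure D4:**
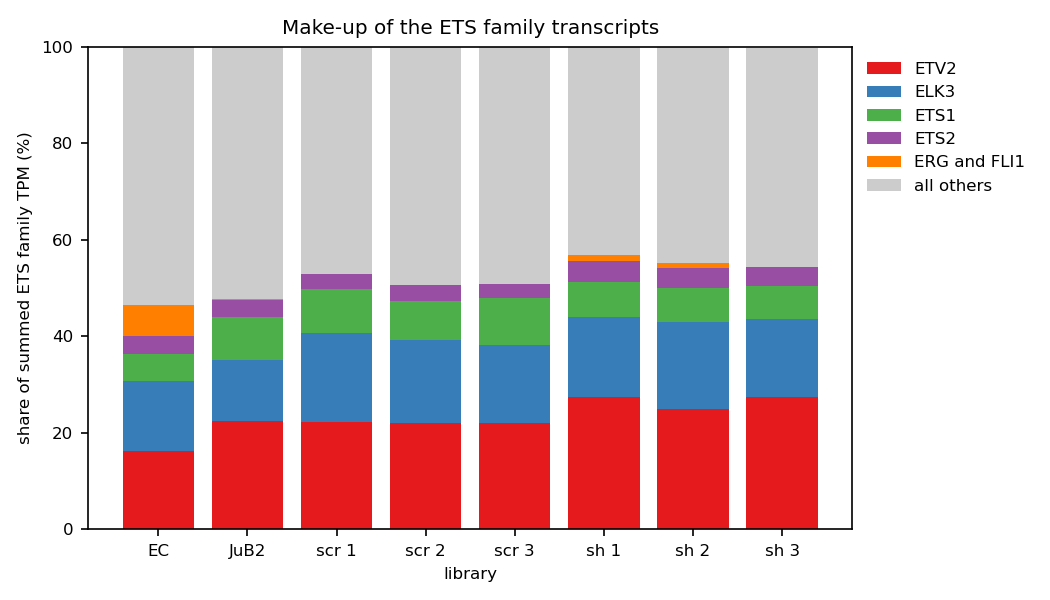
Share of the summed TPM of 24 ETS family genes held by ETV2, ELK3, ETS1, ETS2, ERG with FLI1, and all others, in percent per library. ETV2 holds 16.1% in the library labelled EC, 22.4% in untreated JuB2 and 25 to 27.5% in the libraries labelled KDM2B shRNA, and the band of ERG with FLI1 is widest in the library labelled EC.

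Among the other ETS genes 15 of 19 with a value were tested, and 10 rose, 0 fell and 5 did not pass (limma), with a median difference of 0.51 beside 0.16 for all genes. Of all genes tested 33.3% were called higher and 17.6% lower. ETV3, a repressor, rose from 11.6 ± 1.21 to 30.4 ± 0.78 TPM (SD, n = 3 each), a difference of 1.32 ± 0.11 (SE, limma adjusted p = 9.33e-05). ELF4 rose from 5.27 ± 0.31 to 10.8 ± 1.06 TPM and ELK4, a partner of serum response factor, from 8.57 ± 1.45 to 21.6 ± 5.01 TPM. Untreated JuB2 held 16.78 TPM of ELK4, above every scramble library and nearer to the lowest labelled one, at 18.6 TPM. ELK3 rose from 85.3 ± 7.55 to 123 ± 8.69 TPM. ETV1, ETV4, ELF3, ELF5, ETV5 and ERF were also called higher, but ETV5 and ERF did not pass under any of the 3 other scalings and ELF5 not with quantile normalization. ELF5 held 0, 0.53 and 0.59 TPM in scramble and 2.04, 2.61 and 1.25 TPM with the label. It met the filter only through the labelled libraries, so its call, counted among the 10, is not evidence of a rise. SPI1, the ETS factor of myeloid and B cells, and EHF were listed at 0 in all 8 libraries. In the library labelled EC against untreated JuB2, only ELF3, an epithelial ETS factor, was past 4-fold among 14 compared, listed at 0 and at 7.4 TPM respectively. ERF and ELF4 were higher by 1.35 and 1.32 and GABPA differed by -1.34 on the log2(TPM + 1) scale.

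**Figure D5:**
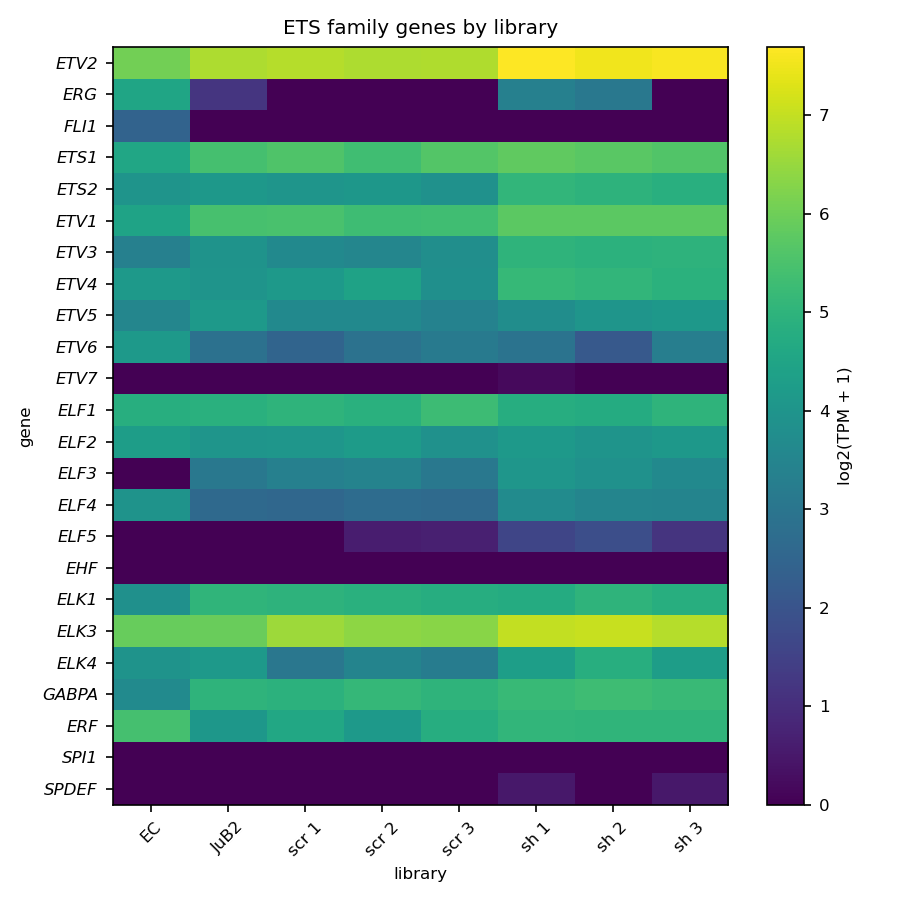
Level of 24 ETS family genes as log2(TPM + 1) by library, the 5 ETS members in the top rows (EC, the library labelled so; scr, scramble; sh, KDM2B shRNA label). ETV2 and ELK3 are brightest in each library, FLI1 is above 0 only in the library labelled EC, and EHF and SPI1 are at 0 throughout.

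Most tested paralogs and partners of TAL1, LMO2 and GATA2 were not called, and no SOX gene of this list had a value. Of 10 tested, LDB1 rose, LMO4 fell and 8 did not pass (limma), with a median difference of -0.06, whereas 50.9% of all genes tested passed. LDB1, the scaffold that joins TAL1 and GATA complexes, rose from 19.9 ± 1.12 to 28.4 ± 2.47 TPM (SD, n = 3 each, limma adjusted p = 0.00558). LMO4, a relative of LMO2 that is widely expressed, fell from 103 ± 10.1 to 72.6 ± 5.2 TPM (SD, n = 3 each, limma adjusted p = 0.00336). TCF3 and TCF12, E proteins that pair with TAL1, did not pass as deposited, and TCF12 was called lower with trimmed-mean scaling (limma adjusted p = 0.0236). GATA3 held 5.62 ± 0.514 and 8.16 ± 1.56 TPM (SD, n = 3 each, limma adjusted p = 0.0545) and GATA4 was listed at 0 in all 8 libraries. In the library labelled EC, TCF4 at 21.66 TPM and LDB2 at 13.15 TPM were past 4-fold above untreated JuB2, which held 2.79 and 2.06 TPM. Neither was past 4-fold against a scramble library, where the differences were 1.01 to 1.30 for TCF4 and 1.58 to 1.80 for LDB2 on the log2(TPM + 1) scale. LMO4 at 355.97 against 89.63 TPM fell just short, at 1.98 on the log2(TPM + 1) scale.

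Of other factors tied to the endothelial lineage, 4 of 12 tested rose, 1 fell and 7 did not pass (limma), with a median difference of 0.32. Of all genes tested 33.3% were called higher and 17.6% lower, so this count does not stand out. The list gave 2 higher and 1 lower with trimmed-mean scaling, and 1 higher and 2 lower with quantile normalization. Without the mitochondrially encoded genes 2 were higher and 1 lower. ID3, an inhibitor of basic helix-loop-helix factors, rose from 66.7 ± 3.5 to 197 ± 22.2 TPM (SD, n = 3 each), a difference of 1.54 ± 0.09 (SE, limma adjusted p = 3.01e-05). KLF4, a factor of quiescent endothelium, fell from 10.1 ± 1.83 to 3.66 ± 0.12 TPM (SD, n = 3 each, limma adjusted p = 0.000818). EPAS1, the hypoxia-inducible factor of endothelium, HHEX and FOXO1 were called higher as deposited. HHEX and FOXO1 did not pass under the 3 other scalings, nor EPAS1 with quantile normalization. EPAS1 held 1.02, 1.33 and 0.71 TPM in scramble and 2.41, 2.68 and 2.4 TPM with the label. It met the filter only with the help of the labelled libraries, so its call, counted among the 4, is not evidence of a rise. The largest differences between the single libraries were at EPAS1, with 93.33 TPM in the library labelled EC and 0.14 TPM in untreated JuB2, and ID3, with 951.03 and 50.46 TPM. HHEX went the other way, at 1.69 and 29.83 TPM, and FOXF1 stood at 10.14 TPM against 0. Of 12 compared there, 4 were past 4-fold higher in the library labelled EC (KLF4, FOXF1, EPAS1 and ID3) and HHEX lower.

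Endothelial genes that these factors are known to bind or activate were mostly at or near 0. Of 24 with a value, 5 were tested, and 6 (TIE1, ANGPT2, NOTCH4, CLEC14A, PLVAP and APLNR) were listed at 0 in all 8 libraries. ENG, a co-receptor of TGF-beta, rose from 21.8 ± 1.81 to 37.8 ± 2.52 TPM (SD, n = 3 each, limma adjusted p = 0.000621). EGFL7, a secreted vessel factor, rose from 9.18 ± 2.15 to 17.2 ± 0.16 TPM (SD, n = 3 each, limma adjusted p = 0.00459), and KDR, the main VEGF receptor, from 3.32 ± 0.666 to 6.20 ± 0.33 TPM (SD, n = 3 each, limma adjusted p = 0.00994). FLT1 and RASIP1 did not pass, with FLT1 at 12.0 ± 0.649 and 11.3 ± 0.996 TPM (SD, n = 3 each). CDH5, a junction gene known as a target of ERG, was listed at 0 in all JuB2 libraries. Such zeros can be failed estimates, and a link between ERG and CDH5 was not tested. Values above 0 were not particular to the library labelled EC. PECAM1, VWF, ESAM, NOS3, DLL4 and MMRN1 were at 0 there and held 0.04 to 0.49 TPM in library 1 labelled KDM2B shRNA. In the library labelled EC 12 of the 24 were above 0. ENG led at 37.04 TPM and FLT1 followed at 13.16 TPM, and CDH5, TEK, EMCN and FLT4 held 0.64, 2.38, 3.11 and 2.82 TPM. EGFL7 held 1.93 TPM there against 11.37 TPM in untreated JuB2, or -2.08 in log2(TPM + 1), which is past 4-fold, whereas against the 3 scramble libraries it was -1.98 to -1.39 and not past it.

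Some genes followed nearly the same profile as a member over the 8 libraries, measured as the root mean square difference of log2(TPM + 1) values centred on each gene's mean, among 8702 or 8703 candidates. For ETV2 these were RNF25 and MANF, at 0.05 and 0.07, where the median candidate was 0.53 away. For ETS1 they were DFFB and DFFA, at 0.06 and 0.07 with a median of 0.43. WDR26 and TOR1B were nearest to ETS2, both at 0.08, and LOC476151 and ACAP2 to TAL1, both at 0.08. GATA2 had GPATCH3 and CDCA8 at 0.18 and 0.19, and SOX18 had ABL2 and ZNF771 at 0.32 and 0.34. ERG had no close match, with SELENBP1 at 0.90 and CRYAB at 0.99 where the median candidate was 1.83 away. The libraries share groups, and the difference between the hairpin groups enters every one of these profiles.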

How the data were processed

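The file the authors deposited lists TPM for 30424 genes in 8 libraries, 1 column each, all with the same sum. STAR, RSEM and CanFam3.1 appear in the tools and builds per the submitters' processing notes, with no version of the tools. No source used here gives the strand setting, how reads shared by paralogs were handled, or any filter. TPM keeps no sequencing depth, so depth is unknown and no counting interval was computed. Between 12639 and 13452 genes were above 0 per library. This count differed between the hairpin groups, at 12699, 12773 and 12684 for scramble and 13421, 13387 and 13452 for the KDM2B shRNA label. JuB2 without a hairpin had 12639 such genes and the EC label 12651. The part of this difference in values near 0, those of ERG and ELF5 included, was not tested.

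Groups are those of the labels. The hairpin groups, 3 libraries each, were tested in limma 3.58.1 (R 4.3.3, two-sided, intensity trend in the prior). The fit used log2(TPM + 1), which understates folds of low genes, and took genes reaching 1 TPM in 3 or more of the 6 hairpin libraries (11485 genes). Benjamini-Hochberg adjustment ran over all of these, with 0.05 as threshold. The fit was tested on simulated data. Single libraries were compared without a test. Genes named beside the members were, for each list, up to 4 with the smallest p and up to 4 furthest apart between the library labelled EC and untreated JuB2, plus the 2 most alike profiles per member. Further list genes are named only to complete a count, and were chosen after their values were seen. The reference gene table is of the assembly UU_Cfam_GSD_1.0, another build, and served only for gene order. Members, lists and alternatives were chosen with earlier results of these data known.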

Additional observations from a re-analysis of the deposited data

How the results depend on the processing

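Over 16 alternatives to the shRNA comparison (3 scalings, 2 filters, 2 pseudocounts, no intensity trend, a replicate block, untreated JuB2 as a further control, and leaving out each library) ETV2, ETS2 and GATA2 kept their direction and passed in limma each time, and SOX18 did so in the 15 that tested it; it was not tested with a mean of at least 5 TPM. Their differences ranged from 0.67 to 0.87, 0.82 to 1.03, 0.89 to 1.46 and 0.69 to 1.67 on the log2 scale. ETS1 did not pass under any (limma adjusted p from 0.107 to 0.722). The number of members lower went from 0 to 1 with trimmed-mean scaling, quantile normalization, removal of the mitochondrially encoded genes and untreated JuB2 added, each time through TAL1. The count of members at least 4-fold apart between the library labelled EC and untreated JuB2 went from 1 to 2 with trimmed-mean scaling (6 compared), quantile normalization (6 compared) and a minimum of 1 TPM (7 compared). As deposited 65.4% of called genes were higher, against 50% with trimmed-mean scaling, 51.5% with quantile normalization and 55.6% without the mitochondrially encoded genes, whose share of TPM was 17.3 to 18.9% in scramble and 11.3 to 12.6% with the label. The replicate block gave 3578 genes higher and 1870 lower, against 3823 and 2027 without it, and changed no member's call. Same-numbered libraries did not deviate together (correlations of 0.034, 0.012 and -0.046), so the numbers were not taken to pair them. The unknown depth limits most the members near 0, ERG, FLI1, SOX17 and SOX18.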
